A study of Homo sapiens with 12 samples.

Results

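The orphan nuclear receptor ESRRG (estrogen-related receptor gamma) was overexpressed from a lentiviral vector in gastric cancer cells under the constitutive EF1 promoter, and the question here is how far the transcriptional response depended on the cell line. The 4 groups were AGS ESRRG OE, AGS control, MKN45 ESRRG OE and MKN45 control, with 3 samples in each. AGS and MKN45 are established human gastric cancer cell lines grown in RPMI1640, the control samples carried a control lentiviral vector, and RNA was taken 3 days after the start of overexpression. All 12 arrays of the series enter the comparison. Each measured 47323 probes on an Illumina BeadChip, of which 22241 were kept. A kept probe was detected, at a detection p below 0.05, by 3 arrays or more, and the kept probes represented 11970 genes.

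Line dependence was measured as an interaction, the ESRRG OE effect in AGS cells minus the ESRRG OE effect in MKN45 cells on the log2 scale. A positive interaction means a more positive effect in AGS cells, and a value of 1 stands for effects that differ by 2-fold. A gene was called when its adjusted p-value (limma, Benjamini-Hochberg over all kept probes) was under 0.05. Because the same 12 arrays also give the gap between the lines with each vector, an interaction can be split by whether the lines already differed in their controls or came to differ under ESRRG. Whether replicates were cultured apart is not stated in the labels. The p-values therefore cover the variation among these samples alone, some of which may be technical. Fewer cells of one kind and less RNA per cell cannot be told apart in bulk RNA.

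Estrogen-related receptors act without a known natural ligand and bind a DNA element that resembles a single estrogen receptor half-site with extra bases before it. They are known for driving genes of mitochondrial energy metabolism together with PGC-1 coactivators, and in the stomach ESRRG is known from acid-secreting parietal cells. Cell lines that carry different mutations can respond to one such factor with different programs, among them the interferon program, which is driven by STAT and IRF factors, and the amino acid response, which is driven by ATF4.

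The arrays differed less by the label of the line than by the vector. Single arrays labelled AGS control and MKN45 control correlated at 0.981 to 0.985 across genes, above the 0.949 to 0.954 between ESRRG OE and control arrays labelled AGS and the 0.961 to 0.969 between those labelled MKN45. Within a group the arrays correlated at 0.992 to 0.996. Between the control groups, 68 of 11970 genes (0.568%) differed by more than 2-fold and 11 by more than 4-fold. MET, a receptor tyrosine kinase gene that MKN45 cells are known to carry amplified, was at 9.61, 9.63 and 9.66 log2 units in the AGS ESRRG OE samples and 9.15, 9.11 and 8.94 in the AGS controls. It was at 9.44, 9.56 and 9.39 in the MKN45 ESRRG OE samples and 9.20, 9.31 and 9.22 in the MKN45 controls. The control groups did not differ in MET beyond the test (-0.18, AGS minus MKN45, adjusted p = 0.164). LYZ, which encodes lysozyme, did separate the labels, with 13.27 ± 0.06 in AGS controls and 10.93 ± 0.17 in MKN45 controls (mean log2 signal ± SD, n = 3). AGS and MKN45 are used below as the names of the libraries with those labels, and since every contrast between lines rests on the labels, no value without the doubtful ones can be given.

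The vector's own gene did not check the labels. Of the 3 ESRRG probes, 1 was kept, and its place relative to the cloned cDNA is not known. It was at 7.11, 6.79 and 6.79 log2 units in the AGS ESRRG OE samples and 7.15, 7.34 and 7.31 in the AGS controls. In MKN45 it was at 6.85, 7.03 and 6.93 in the MKN45 ESRRG OE samples and 6.82, 6.92 and 7.0 in the MKN45 controls. The AGS ESRRG OE values lay below all 3 AGS controls, a fall of 0.37 log2 units (adjusted p = 0.00351), and the MKN45 groups overlapped. On these arrays the libraries are therefore called ESRRG OE by their labels alone. The study shows ESRRG overexpression by western blot and qRT-PCR in infected gastric cancer lines, AGS and MKN45 among those it names. Whether the samples of these arrays were checked in that way is not stated. The probe was detected on 1 of 3 AGS ESRRG OE arrays, 3 of 3 AGS control arrays and 1 of 3 arrays in each MKN45 group. Its interaction was -0.40 (SE 0.13, adjusted p = 0.0754), with an adjusted p of 0.0252 without AGS ESRRG OE replicate 1. ESRRA, the paralog that also drives oxidative metabolism, rose in both lines by 0.68 and 0.51 log2 units with an interaction of 0.16 (SE 0.11, adjusted p = 0.392). All 5 epithelial markers (EPCAM, KRT8, KRT18, KRT19 and CDH1) were detected on all 12 arrays, and none passed the interaction test, although KRT19 did without AGS ESRRG OE replicate 3 (adjusted p = 0.0371). It also passed in the fit of 1 value per gene (0.0465). KRT19 has 1 kept probe, so its estimate stayed and only the spread and the adjustment changed there. Of 7 fibroblast markers 5, of 5 endothelial markers 4 and of 6 leukocyte markers 3 (PTPRC, CD3E and CD14) were detected on no array. The other leukocyte markers LYZ, CD68 and LCP1 and the collagen gene COL1A1 were detected on 10 to 12 arrays, and the brightest probe of each had no called interaction with all arrays. LCP1 did pass without MKN45 control replicate 2 (adjusted p = 0.0458) and with quantile normalization within each line (0.0178). It also passed in the fit of 1 value per gene (0.0452), where its 1 kept probe kept its estimate. A second kept CD68 probe had an interaction of -0.71 (adjusted p = 0.00199), against 0.19 for the brightest, and the part of this in the results was not tested. AGS controls had the fewest detected probes, 18795 to 18939, against 19465 to 20397 in the other 9 arrays, and the part of this in the results was not tested.

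The ESRRG OE effect passed the test in 5534 of 11970 genes (46.2%) in AGS cells, of which 2634 rose and 2900 fell, and in 4410 genes (36.8%) in MKN45 cells, of which 2193 rose and 2217 fell. The interaction passed in 1145 genes (9.57%), 601 with a positive interaction (5.02%) and 544 with a negative one (4.54%), and 3077 genes had an unadjusted p under 0.05. The effects in the 2 lines correlated at 0.81 across genes, with a slope of 0.67 log2 units in MKN45 for each unit in AGS, as a description over genes that are not independent. Of the 3288 genes past the test in both lines, 3232 (98.3%) moved the same way. Among the called interactions, 842 (73.5%) had the larger absolute effect in AGS cells. Of the called interactions 52 exceeded 2-fold, 41 positive and 11 negative. Called genes had a median mean signal of 8.97 log2 units, against 8.21 over all kept genes.

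**Figure D1:**
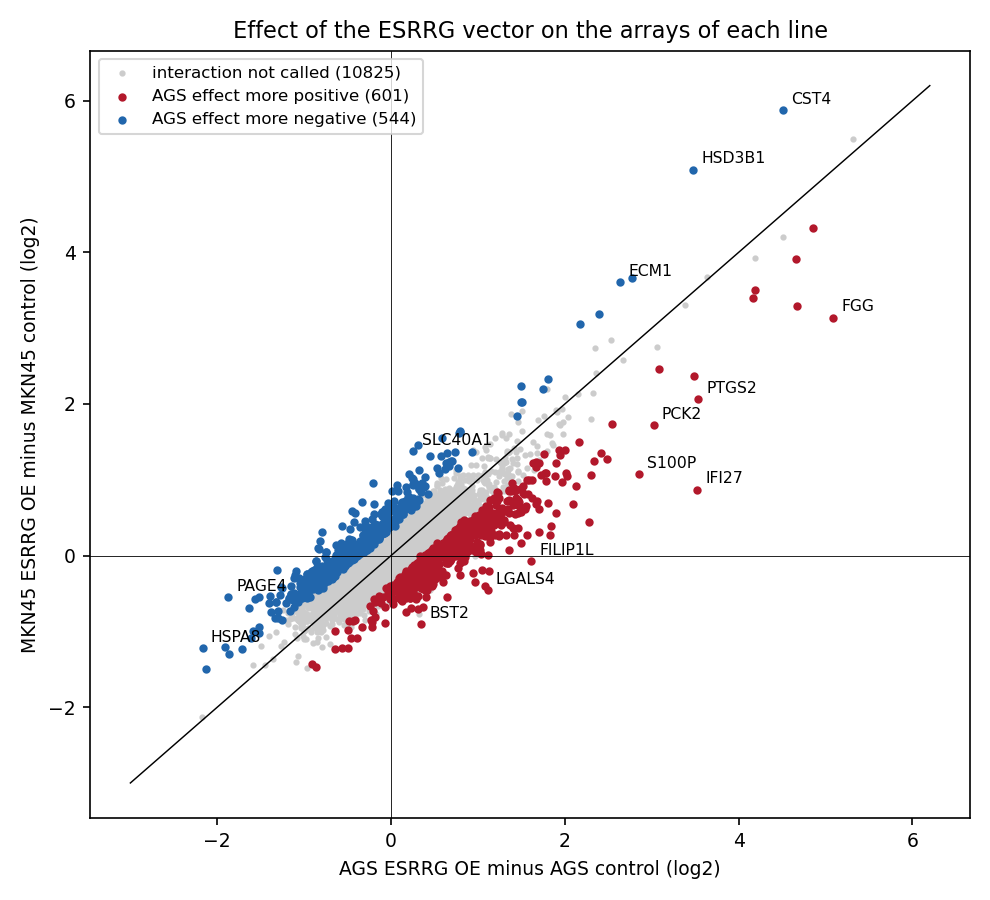
ESRRG OE effect in AGS cells (horizontal axis, log2) against that in MKN45 cells (vertical axis, log2), 1 point per gene for 11970 genes, with the 601 positive interactions in red, the 544 negative ones in blue, the other 10825 in gray and the line of equal effects. Of the called genes, 402 passed the test in both lines in the same direction, and IFI27 and HSD3B1 lie farthest from the line of equal effects on either side of it.

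The balance of directions moved with the scaling. Positive interactions were 52.5% of calls on the deposited quantile-normalized values and 36.8% of 340 calls when arrays were scaled to one median instead, which moved the median MKN45 effect of all genes to 0.14 log2 units, against -0.01 on the deposited values, and the median AGS effect to 0.08. The count of calls also fell to 722 and 712 without AGS ESRRG OE replicate 1 or 2.

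The largest positive interaction was that of IFI27, an interferon-induced mitochondrial protein gene. IFI27 was at 11.76, 11.88 and 11.88 log2 units in the AGS ESRRG OE samples and 8.14, 8.67 and 8.15 in the AGS controls. It was at 11.72, 11.81 and 11.53 in the MKN45 ESRRG OE samples and 10.59, 10.93 and 10.93 in the MKN45 controls. The 3 AGS controls lay far below all other arrays, and the ESRRG OE samples of both lines overlapped. IFI27 rose by 3.52 log2 units in AGS and 0.87 in MKN45, an interaction of 2.65 (SE 0.18, adjusted p = 1.87e-08), while the gap between the lines was -2.50 in controls and 0.15 under ESRRG.

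PTGS2, which encodes the inducible cyclooxygenase, had the same arrangement. It was at 12.21, 12.18 and 12.18 log2 units in the AGS ESRRG OE samples and 8.72, 8.53 and 8.73 in the AGS controls. It was at 11.996, 12.20 and 12.004 in the MKN45 ESRRG OE samples and 10.06, 10.01 and 9.93 in the MKN45 controls. ESRRG OE brought both lines to overlapping levels although the controls were apart. The rises were 11.6-fold in AGS and 4.19-fold in MKN45, with an interaction of 1.46 (SE 0.12, adjusted p = 2.49e-07).

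S100P, a calcium-binding protein gene often high in gastrointestinal tumors, was at 12.61, 12.57 and 12.46 log2 units in the AGS ESRRG OE samples and 9.65, 9.81 and 9.62 in the AGS controls. In MKN45 it was at 12.12, 12.42 and 11.92 in the MKN45 ESRRG OE samples and 10.86, 11.22 and 11.15 in the MKN45 controls. The lower AGS controls ended up, with ESRRG OE, above all 3 MKN45 ESRRG OE samples. Its interaction was 1.78 (SE 0.16, adjusted p = 1.04e-06). MYH4, a fast skeletal muscle myosin heavy chain gene, turned its order likewise, with means of 10.02 ± 0.12 in AGS ESRRG OE and 7.74 ± 0.05 in AGS control samples and of 9.39 ± 0.29 in MKN45 ESRRG OE and 8.94 ± 0.13 in MKN45 control samples. Its interaction was 1.83 (SE 0.16, adjusted p = 7.5e-07).

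FGG, the gamma chain of fibrinogen, showed one of the largest responses and depended on the probe. The brightest FGG probe was at 13.35, 13.19 and 13.22 log2 units in the AGS ESRRG OE samples and 8.18, 8.13 and 8.17 in the AGS controls. It was at 13.57, 13.65 and 13.61 in the MKN45 ESRRG OE samples and 10.45, 10.46 and 10.51 in the MKN45 controls. The rise was 34.1-fold in AGS and 8.81-fold in MKN45, with an interaction of 1.95 (SE 0.10, adjusted p = 7.84e-10). A second kept FGG probe rose by 3.44 log2 units in AGS and 4.15 in MKN45, an interaction of -0.72 (SE 0.11, adjusted p = 0.00048), so the direction of the line dependence of FGG turned with the probe. FGB, the beta chain, rose by 4.85 in AGS and 4.32 in MKN45 (interaction 0.53, SE 0.13, adjusted p = 0.0136), a call lost with arrays scaled to one median (adjusted p = 0.36), and FGA, the alpha chain, rose by 4.51 and 4.21 with an interaction of 0.31 (SE 0.15, adjusted p = 0.221).

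Other positive interactions came with a rise called in AGS alone, as in FILIP1L and CYP1A1. FILIP1L, a filamin A interacting protein gene, was at 11.01, 11.13 and 10.83 log2 units in the AGS ESRRG OE samples and 9.36, 9.40 and 9.36 in the AGS controls. It was at 9.86, 9.65 and 9.58 in the MKN45 ESRRG OE samples and 9.78, 9.68 and 9.86 in the MKN45 controls. The AGS ESRRG OE samples were the highest and the AGS controls the lowest. The interaction was 1.69 (SE 0.13, adjusted p = 1.85e-07). CYP1A1, the aryl hydrocarbon receptor target and xenobiotic-metabolizing monooxygenase, was at 10.84, 10.42 and 10.32 log2 units in the AGS ESRRG OE samples and 8.78, 8.59 and 8.73 in the AGS controls. It was at 7.95, 8.37 and 8.08 in the MKN45 ESRRG OE samples and 8.05, 7.75 and 7.78 in the MKN45 controls. The AGS samples were higher with both vectors and the gap widened under ESRRG OE (interaction 1.55, SE 0.18, adjusted p = 2.02e-05). The rise of PLAC8 was 3.57-fold in AGS, against 1.32-fold in MKN45 (interaction 1.44, SE 0.13, adjusted p = 1.5e-06). MMP10, a stromelysin, was not detected on any AGS control array and rose at least 3.93-fold in AGS, the bound being set against the dimmest detected signal, and 1.61-fold in MKN45, so its interaction has no exact size.

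HSD3B1, a 3-beta-hydroxysteroid dehydrogenase of steroid synthesis, had the most negative interaction. HSD3B1 was at 10.60, 10.44 and 10.29 log2 units in the AGS ESRRG OE samples and 6.85, 6.86 and 7.19 in the AGS controls. It was at 12.32, 12.04 and 12.20 in the MKN45 ESRRG OE samples and 7.19, 7.06 and 7.04 in the MKN45 controls. The controls of both lines were near the background, detected on 1 of 3 AGS arrays and 3 of 3 MKN45 arrays, and the ESRRG OE samples did not overlap between lines. The rises were 11.1-fold in AGS and 34.1-fold in MKN45, with an interaction of -1.62 (SE 0.15, adjusted p = 1.04e-06).

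CST4 and CST1, salivary-type cystatins that inhibit cysteine proteases and are close in sequence to each other, were both negative. CST4 was at 12.15, 12.27 and 12.33 log2 units in the AGS ESRRG OE samples and 7.79, 7.79 and 7.65 in the AGS controls. It was at 13.04, 12.88 and 12.88 in the MKN45 ESRRG OE samples and 7.05, 7.13 and 7.002 in the MKN45 controls. The order of the lines turned between vectors (interaction -1.36, SE 0.12, adjusted p = 5.29e-07). CST1 was at 13.65, 13.67 and 13.60 log2 units in the AGS ESRRG OE samples and 13.34, 13.33 and 13.33 in the AGS controls. It was at 13.68, 13.66 and 13.60 in the MKN45 ESRRG OE samples and 12.11, 12.24 and 12.24 in the MKN45 controls. The ESRRG OE samples of both lines overlapped, the MKN45 controls were the low group, and the interaction was -1.14 (SE 0.10, adjusted p = 1.04e-06).

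FGD3, a guanine nucleotide exchange factor gene for CDC42, was at 7.32, 7.45 and 7.69 log2 units in the AGS ESRRG OE samples and 7.71, 7.57 and 7.81 in the AGS controls. It was at 8.88, 8.72 and 8.89 in the MKN45 ESRRG OE samples and 7.95, 7.92 and 7.76 in the MKN45 controls. Only the MKN45 ESRRG OE samples lay above the range of the other arrays (interaction -1.17, SE 0.14, adjusted p = 2.7e-05). SLC40A1, which encodes the iron exporter ferroportin, was at 9.04, 9.04 and 8.76 log2 units in the AGS ESRRG OE samples and 8.82, 8.48 and 8.76 in the AGS controls. It was at 9.80, 9.63 and 9.82 in the MKN45 ESRRG OE samples and 8.41, 8.36 and 8.34 in the MKN45 controls. It rose by 0.26 in AGS and 1.38 in MKN45 (interaction -1.12, SE 0.14, adjusted p = 4.78e-05). DPYSL3, a cytoskeletal regulator, averaged 8.36 ± 0.09 in AGS ESRRG OE and 9.67 ± 0.06 in AGS control samples, and 8.20 ± 0.08 in MKN45 ESRRG OE and 8.40 ± 0.06 in MKN45 control samples, and its MKN45 effect did not pass the test. PAGE4, a cancer-testis gene, averaged 7.73 ± 0.21 in AGS ESRRG OE and 9.61 ± 0.16 in AGS control samples, and it fell in MKN45 by at least 1.31-fold to below detection on all 3 ESRRG OE arrays. The interaction of DPYSL3 was -1.11 (SE 0.11, adjusted p = 4.44e-06), and that of PAGE4 has no exact size.

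**Figure D2:**
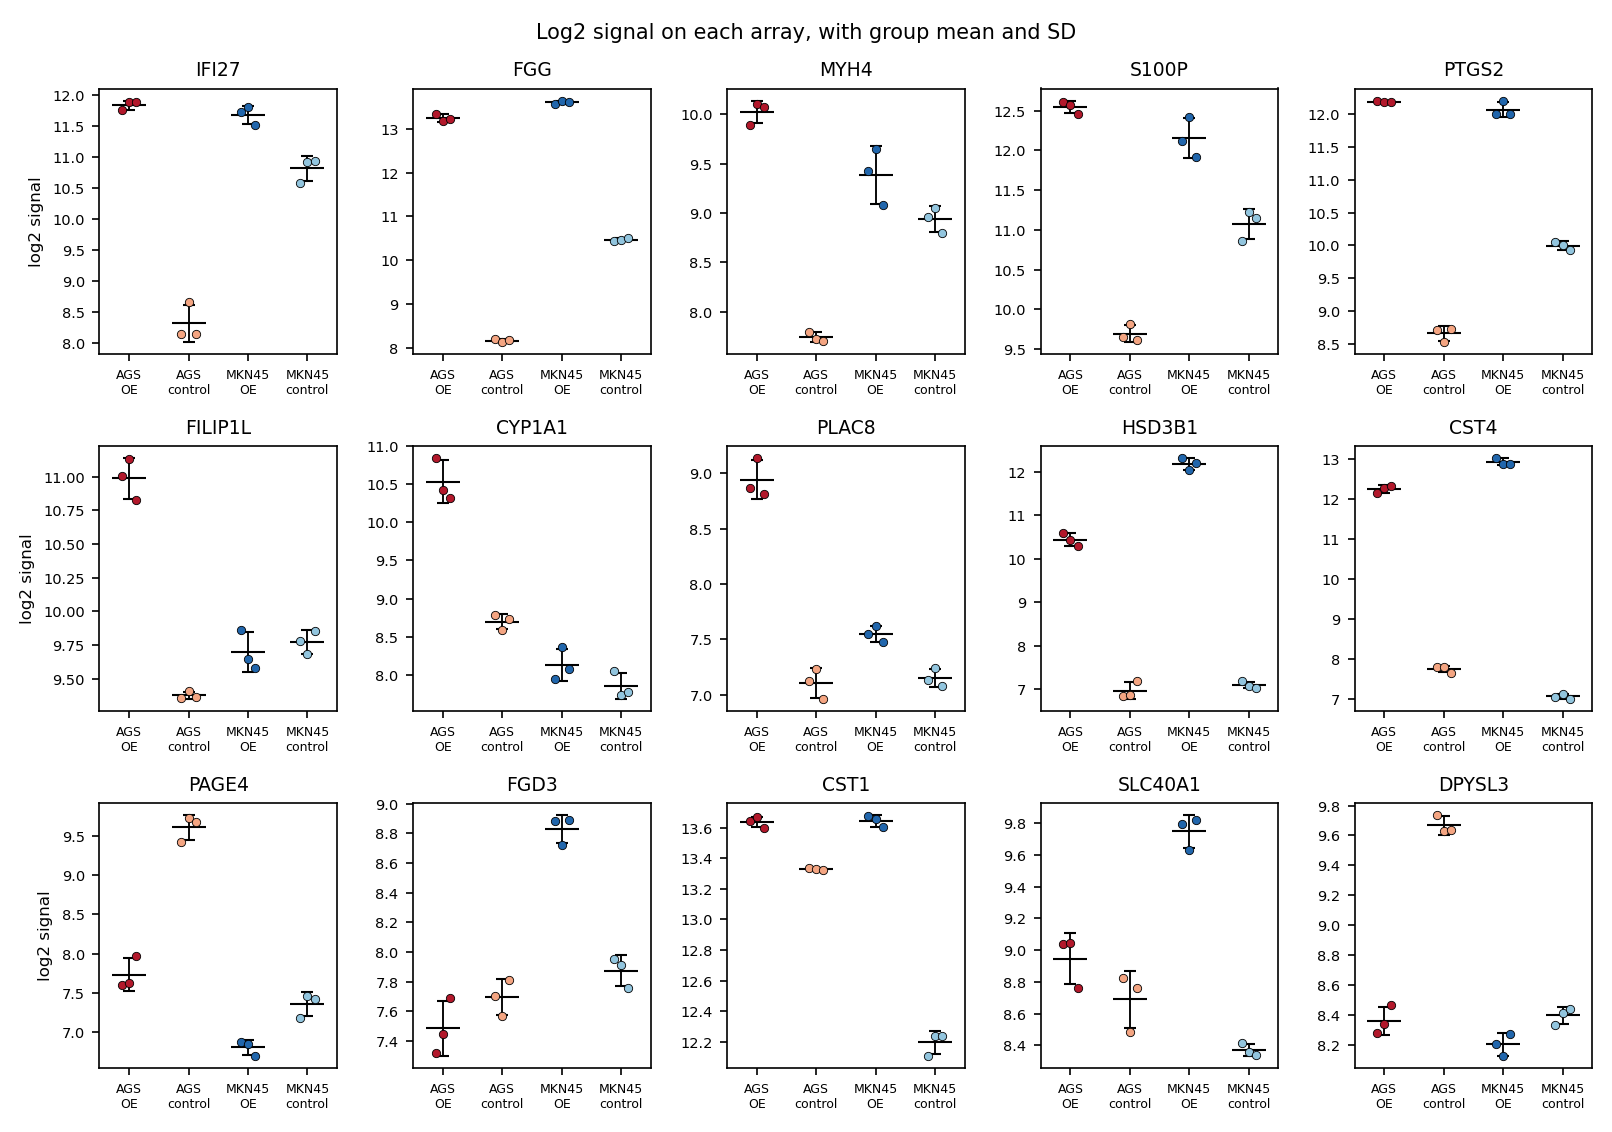
Log2 signal of 15 genes with large interactions on each of the 12 arrays, in the order AGS ESRRG OE, AGS control, MKN45 ESRRG OE and MKN45 control, with 3 points per group, the mean and the SD (each panel has its own vertical axis). IFI27 and PTGS2 differed between lines in the controls, PLAC8 and HSD3B1 under ESRRG OE, and FILIP1L was highest in AGS ESRRG OE samples.

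The split by the gap between lines separated these forms. With the control vector, 1719 genes (14.4%) differed between AGS and MKN45, 961 higher in AGS and 758 lower. With the ESRRG vector, 3989 (33.3%) differed, 1915 higher and 2074 lower. Of the 1145 called interactions, the absolute gap was larger under ESRRG OE in 876 (76.5%) and smaller in 269. In 777 genes (6.49% of all tested) only the gap under ESRRG OE passed the test, 398 with a positive interaction and 379 with a negative one. In 170 genes (1.42% of all tested) only the gap between controls passed, 77 positive and 93 negative. Here and below, a difference with only 1 vector means that the other gap was not called, not that it was absent. CENPF, in the first class, had gaps of 0.23 between controls (adjusted p = 0.063) and -0.26 under ESRRG OE (0.0158). Both gaps passed in 164 further genes, with the gap narrower under ESRRG OE in 36, wider in 71 and of turned order in 57, and neither passed in 34. The median absolute gap of the 777 genes was 0.52 log2 units under ESRRG OE and 0.11 with the control vector, and that of the 170 genes was 0.12 under ESRRG OE and 0.43 with the control vector. The class with only ESRRG OE differences counted 457 and 454 genes without AGS ESRRG OE replicate 1 or 2 and 504 without MKN45 ESRRG OE replicate 1. The class with only control differences counted 112 without MKN45 control replicate 3.

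**Figure D3:**
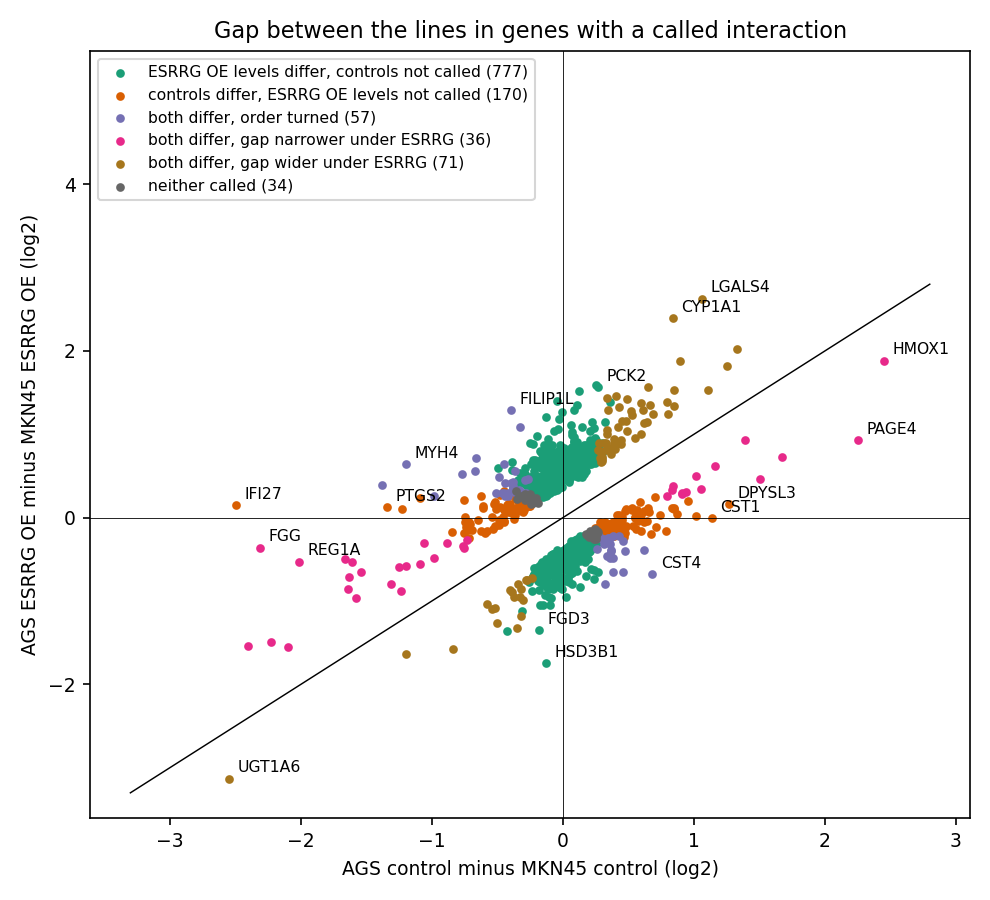
Gap between the lines under ESRRG OE (vertical axis, AGS minus MKN45, log2) against the gap with the control vector (horizontal axis, log2) in the 1145 genes with a called interaction, colored by which gap passed the test, with the line of equal gaps. The 777 genes in green spread along the vertical axis and the 170 in orange along the horizontal one, with IFI27 at -2.50 in controls and 0.15 under ESRRG OE.

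Among the genes whose lines differed only in the controls, LGALS7 and LGALS7B, the galectin-7 genes, followed IFI27 and PTGS2. Their sequences are near-identical, so the 2 probes may read the same transcripts. LGALS7 was at 8.72, 8.997 and 8.80 log2 units in the AGS ESRRG OE samples and 7.89, 7.76 and 7.96 in the AGS controls. It was at 8.54, 8.77 and 8.49 in the MKN45 ESRRG OE samples and 8.68, 9.15 and 9.03 in the MKN45 controls. The interactions were 1.33 (SE 0.16, adjusted p = 2.71e-05) for LGALS7 and 1.33 (SE 0.19, adjusted p = 0.000284) for LGALS7B. The AGS controls were the low group for both probes. IFI6, a mitochondrial interferon-induced gene, averaged 11.97 ± 0.12 in AGS ESRRG OE and 10.83 ± 0.20 in AGS control samples, and 11.76 ± 0.24 in MKN45 ESRRG OE and 11.59 ± 0.14 in MKN45 control samples, with an interaction of 0.96 (SE 0.17, adjusted p = 0.00139), a call lost with arrays scaled to one median (0.83, adjusted p = 0.0504) and with the mean of its probes (adjusted p = 0.18). A second kept IFI6 probe, with an interaction of 1.025 that did not pass (SE 0.77, adjusted p = 0.483), had the controls apart the other way, by 0.90 against -0.75 for the brightest (AGS minus MKN45).

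In the negative direction of this class, UNC5CL, a death-domain gene, averaged 7.93 ± 0.11 in AGS ESRRG OE and 9.50 ± 0.11 in AGS control samples, and 7.91 ± 0.08 in MKN45 ESRRG OE and 8.48 ± 0.08 in MKN45 control samples. The zinc finger gene ZNF121 averaged 7.14 ± 0.08 in AGS ESRRG OE and 7.99 ± 0.22 in AGS control samples, and 7.29 ± 0.24 in MKN45 ESRRG OE and 7.20 ± 0.08 in MKN45 control samples. In both genes the AGS controls were the highest group, with interactions of -0.99 (SE 0.12, adjusted p = 3.6e-05) and -0.94 (SE 0.16, adjusted p = 0.00114). S100A16, another S100 gene, rose by 0.45 in AGS and 1.31 in MKN45, its MKN45 controls being the low group (interaction -0.86, SE 0.12, adjusted p = 0.000259).

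Among the genes whose lines differed only under ESRRG OE, RBCK1, a component of the linear ubiquitin chain assembly complex, was at 11.54, 11.50 and 11.27 log2 units in the AGS ESRRG OE samples and 9.81, 9.63 and 9.77 in the AGS controls. It was at 10.03, 9.94 and 9.78 in the MKN45 ESRRG OE samples and 9.66, 9.57 and 9.60 in the MKN45 controls. The AGS ESRRG OE samples were the high group (interaction 1.40, SE 0.13, adjusted p = 1.04e-06). SPRR2D, a cornified envelope precursor gene, averaged 9.88 ± 0.08 in AGS ESRRG OE and 8.38 ± 0.14 in AGS control samples, and 8.29 ± 0.25 in MKN45 ESRRG OE and 8.13 ± 0.05 in MKN45 control samples (interaction 1.34, SE 0.15, adjusted p = 1.38e-05). APP, the amyloid precursor protein gene, had widely spread MKN45 samples, averaging 11.76 ± 0.12 in AGS ESRRG OE and 9.86 ± 0.15 in AGS control samples and 10.55 ± 0.71 in MKN45 ESRRG OE and 9.99 ± 0.59 in MKN45 control samples. Its interaction was 1.34 (SE 0.36, adjusted p = 0.0278), and the call was lost without replicate 1 or 2 of AGS ESRRG OE, 2 or 3 of AGS control, 2 or 3 of MKN45 ESRRG OE, or 1 or 3 of MKN45 control (adjusted p 0.0512 to 0.0889).

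In the negative direction of the same class, ECM1, a secreted extracellular matrix protein gene, was at 10.10, 10.18 and 10.12 log2 units in the AGS ESRRG OE samples and 7.39, 7.53 and 7.55 in the AGS controls. It was at 11.06, 10.93 and 10.91 in the MKN45 ESRRG OE samples and 7.27, 7.42 and 7.39 in the MKN45 controls. Both lines rose steeply and MKN45 reached the higher level (interaction -0.97, SE 0.11, adjusted p = 2.19e-05). FASN, the fatty acid synthase gene, was at 9.39, 9.28 and 9.42 log2 units in the AGS ESRRG OE samples and 11.23, 10.86 and 10.55 in the AGS controls. It was at 10.19, 10.07 and 10.01 in the MKN45 ESRRG OE samples and 10.67, 10.38 and 10.88 in the MKN45 controls. It fell in both lines and lay lower in AGS ESRRG OE samples (interaction -0.97, SE 0.19, adjusted p = 0.00369).

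Opposite directions were rare. A rise in AGS with a fall in MKN45 was called in 29 genes (0.242% of all tested) and a fall in AGS with a rise in MKN45 in 27 (0.226%), with the interaction called in each. Of the other called genes, 328 moved the same way with the larger effect in AGS, 74 the same way with the larger effect in MKN45, 487 in AGS alone, 189 in MKN45 alone and 11 in neither line taken by itself. The members of this class changed with the scaling. With arrays scaled to one median, 21 genes had opposite directions, 3 with the rise in AGS and 18 with the rise in MKN45, and 5 of them (ATF7IP2, BST2, PSG4, SAMD5 and SMIM24) were among the 56. With background correction (neqc) 40 genes had them and 29 were among the 56. The count was 36 without AGS control replicate 1, 85 without AGS control replicate 3 and 35 without MKN45 ESRRG OE replicate 1.

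LGALS4, the intestinal galectin-4 gene, was at 11.12, 10.95 and 10.97 log2 units in the AGS ESRRG OE samples and 9.79, 9.93 and 9.98 in the AGS controls. It was at 8.44, 8.51 and 8.20 in the MKN45 ESRRG OE samples and 8.79, 8.74 and 8.97 in the MKN45 controls. AGS was higher with both vectors and the lines moved apart (AGS 1.11, MKN45 -0.45, interaction 1.56, SE 0.13, adjusted p = 5.29e-07). REG1A, a secreted regenerating-family lectin gene, was at 9.97, 9.82 and 9.90 log2 units in the AGS ESRRG OE samples and 8.69, 8.90 and 8.86 in the AGS controls. It was at 10.39, 10.43 and 10.45 in the MKN45 ESRRG OE samples and 10.80, 10.77 and 10.90 in the MKN45 controls. Here AGS was the lower line and the lines moved together (interaction 1.48, SE 0.11, adjusted p = 1.82e-07). With arrays scaled to one median both genes still rose in AGS, while their MKN45 effects of -0.19 and -0.11 did not pass the test.

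TAF15, an RNA-binding protein gene of the FET family, was at 11.39, 11.20 and 11.12 log2 units in the AGS ESRRG OE samples and 10.38, 10.83 and 10.57 in the AGS controls. It was at 10.28, 10.07 and 10.40 in the MKN45 ESRRG OE samples and 10.90, 10.68 and 10.81 in the MKN45 controls. The controls overlapped and the ESRRG OE samples did not (interaction 1.18, SE 0.16, adjusted p = 0.000119). SAMD5 averaged 10.54 ± 0.11 in AGS ESRRG OE and 10.17 ± 0.06 in AGS control samples, and 9.09 ± 0.11 in MKN45 ESRRG OE and 9.77 ± 0.09 in MKN45 control samples (interaction 1.05, SE 0.12, adjusted p = 2.02e-05). ANP32AP1 is a pseudogene whose sequence resembles ANP32A, with an interaction of 0.95 (SE 0.18, adjusted p = 0.00312). FMC1, a mitochondrial ATP synthase assembly factor gene, and SHROOM4, an actin-binding protein gene, differed from each other by at most 0.11 log2 units on any of the 12 arrays, with interactions of 0.87 (SE 0.22, adjusted p = 0.0179) and 0.87 (SE 0.21, adjusted p = 0.0165). With arrays scaled to one median neither passed (adjusted p = 0.173 and 0.186). The other 2 kept probes of FMC1 had interactions of 0.06 (adjusted p = 0.869) and -0.27 (adjusted p = 0.239), and the FMC1 call was lost without MKN45 ESRRG OE replicate 1 (adjusted p = 0.0515) or MKN45 control replicate 3 (0.0507).

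In the other orientation, PSG4, one of the pregnancy-specific glycoprotein genes, which are close in sequence, was at 8.29, 8.10 and 8.16 log2 units in the AGS ESRRG OE samples and 8.59, 8.61 and 8.69 in the AGS controls. It was at 8.80, 8.81 and 8.88 in the MKN45 ESRRG OE samples and 8.19, 8.24 and 8.30 in the MKN45 controls. The order of the lines turned between vectors (interaction -1.04, SE 0.11, adjusted p = 8.14e-06). CCN2, the connective tissue growth factor gene and a YAP target, was at 9.997, 10.22 and 10.28 log2 units in the AGS ESRRG OE samples and 10.57, 10.46 and 10.47 in the AGS controls. It was at 9.91, 9.50 and 9.69 in the MKN45 ESRRG OE samples and 9.09, 9.07 and 8.81 in the MKN45 controls. AGS stayed the higher line in the means while the gap narrowed (interaction -1.04, SE 0.15, adjusted p = 0.000259). A second kept CCN2 probe changed by -0.34 in AGS and 0.16 in MKN45, with an interaction of -0.50 (adjusted p = 0.0511). With background correction or one median the CCN2 interaction was still called, but its AGS effects of -0.36 and -0.14 did not pass the test. ATF7IP2 averaged 7.95 ± 0.05 in AGS ESRRG OE and 8.74 ± 0.15 in AGS control samples, and 8.60 ± 0.10 in MKN45 ESRRG OE and 8.28 ± 0.01 in MKN45 control samples (interaction -1.11, SE 0.12, adjusted p = 1.11e-05).

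SMIM24 averaged 10.43 ± 0.12 in AGS ESRRG OE and 10.99 ± 0.07 in AGS control samples, and 9.71 ± 0.16 in MKN45 ESRRG OE and 9.32 ± 0.04 in MKN45 control samples (interaction -0.95, SE 0.13, adjusted p = 0.000116). The nucleoside transporter gene SLC29A3, the selenium-dependent extracellular glutathione peroxidase gene GPX3 and the amino acid transporter gene SLC7A8 fell by 0.43, 0.36 and 0.47 log2 units in AGS and rose by 0.44, 0.38 and 0.35 in MKN45. Their interactions were -0.87, -0.74 and -0.82. PFKFB3, which encodes a glycolytic regulator, fell by 0.32 in AGS and rose by 0.38 in MKN45 (interaction -0.69, SE 0.15, adjusted p = 0.00599). All of these single-line effects were under 2-fold.

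**Figure D4:**
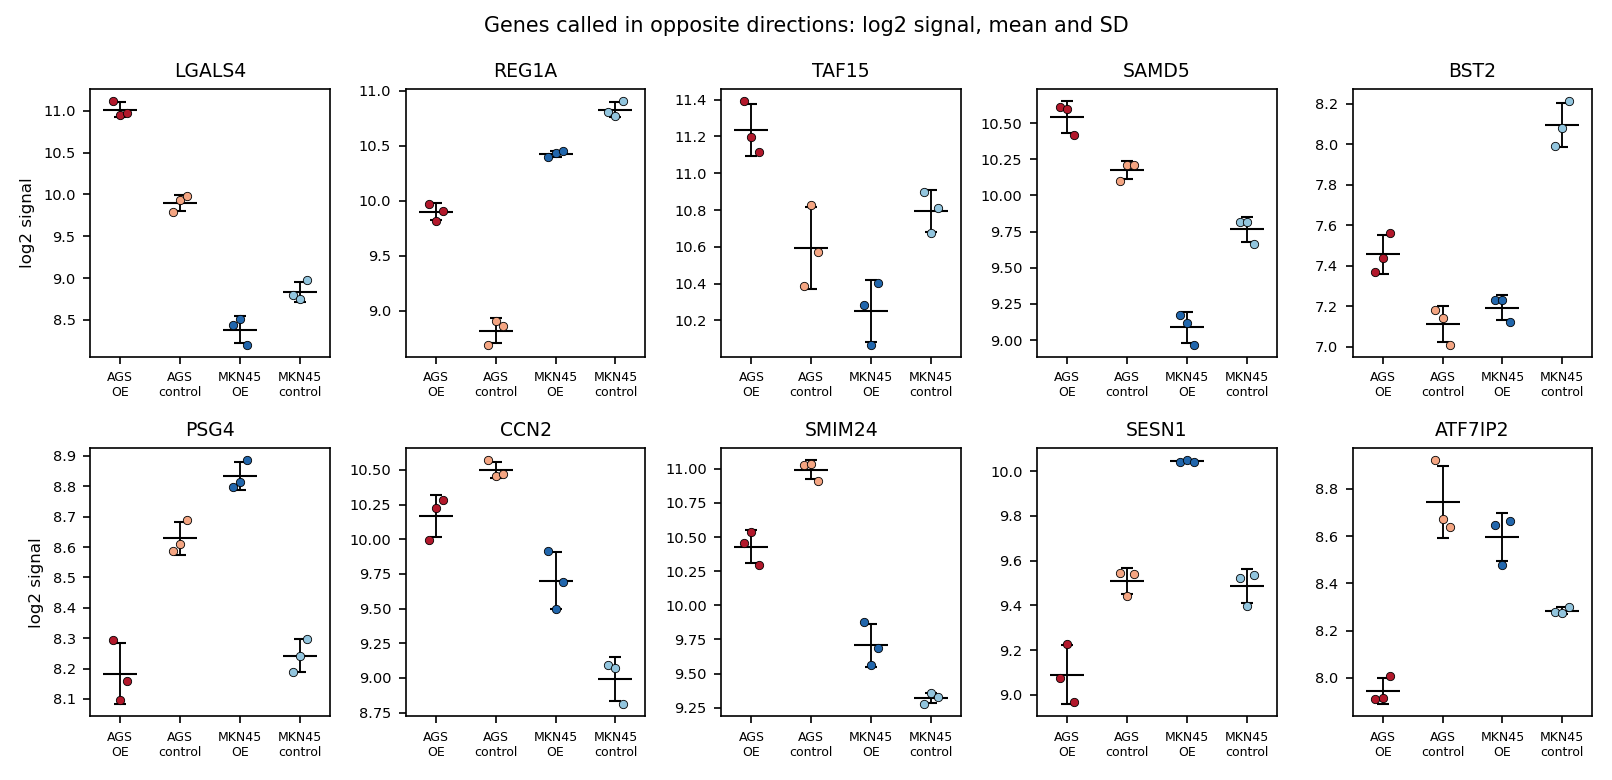
Log2 signal on each of the 12 arrays for 10 genes called in opposite directions, in the order AGS ESRRG OE, AGS control, MKN45 ESRRG OE and MKN45 control, with the mean and SD (n = 3 per group). LGALS4, REG1A, TAF15, SAMD5 and BST2 rose in AGS and fell in MKN45, and PSG4, CCN2, SMIM24, SESN1 and ATF7IP2 did the reverse on the deposited values.

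The interferon-stimulated genes carried line dependence of one sign. Of 23 tested, 12 were called and each was positive (52.2%, beside 9.57% of all genes), the estimate was above 0 in all 23, and the median interaction was 0.42, beside -0.01 over all genes. In AGS 12 of the 23 passed the test and all 12 rose, with a median effect of 0.20. In MKN45 4 rose and 7 fell, with a median of -0.18 that turned to 0.07 with arrays scaled to one median, where 7 interactions were called. The controls were lower in AGS in 14 genes and higher in 1, whereas under ESRRG OE 7 were lower and 6 higher. Of all genes, 46.2% passed in AGS, 36.8% in MKN45, 14.4% between controls and 33.3% between ESRRG OE groups. The counts of this and the following lists stand beside these shares.

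IFIT1, an RNA-binding antiviral effector, was at 10.003, 9.96 and 10.10 log2 units in the AGS ESRRG OE samples and 9.03, 9.10 and 9.10 in the AGS controls. It was at 10.56, 10.50 and 10.49 in the MKN45 ESRRG OE samples and 10.94, 10.56 and 10.73 in the MKN45 controls. IFIT1 rose in AGS by 0.94, stayed lower than in MKN45 and had an interaction of 1.17 (SE 0.12, adjusted p = 9.26e-06). BST2, which encodes tetherin, was at 7.37, 7.44 and 7.56 log2 units in the AGS ESRRG OE samples and 7.18, 7.14 and 7.01 in the AGS controls. It was at 7.23, 7.23 and 7.12 in the MKN45 ESRRG OE samples and 7.99, 8.08 and 8.21 in the MKN45 controls. The MKN45 controls were the high group, and BST2 rose by 0.35 in AGS and fell by 0.90 in MKN45 (interaction 1.25, SE 0.12, adjusted p = 2.13e-06). ISG20, an exonuclease gene, averaged 9.59 ± 0.12 in AGS ESRRG OE and 8.02 ± 0.03 in AGS control samples, and 9.07 ± 0.16 in MKN45 ESRRG OE and 8.79 ± 0.15 in MKN45 control samples (interaction 1.29, SE 0.13, adjusted p = 7.38e-06). IFIT3 had an interaction of 0.90 (SE 0.12, adjusted p = 0.000157) and IFI44 one of 0.79 (SE 0.11, adjusted p = 0.000217). The other kept probes of IFIT3 gave 0.06 (adjusted p = 0.841) and 0.20 (0.433), and that of IFIT1 gave 0.12 (0.579). HLA-B, a class I antigen presentation gene that interferon induces, rose by 1.24 in AGS and 0.26 in MKN45, of which the second did not pass the test (interaction 0.98, SE 0.14, adjusted p = 0.000201), but in the class I list 2 of 12 genes were called.

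Promoters of these genes are shown because all the called interactions of the list had one sign. A promoter sequence of 300 bases, from 250 before to 50 after the gene start, was matched by symbol for 9513 of the 11970 genes (RefSeq, GRCh38.p14). The interferon-stimulated response element was searched as GAAA, any 2 bases and GAAA on both strands, a pattern chosen after the values were seen. It stood in 14 of the 19 listed promoters, in 9 of the 9 with a called interaction, and in 2.84% of all 9513. In each stretch 1 match is in capitals, and the IFI27, IFIT1 and BST2 stretches hold a further one left in lower case. Each is printed in the direction of its gene.
IFI27 (chr14:94110621-94110670, plus strand): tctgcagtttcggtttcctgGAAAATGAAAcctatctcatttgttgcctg
IFIT1 (chr10:89392500-89392549, plus strand, match on the other strand): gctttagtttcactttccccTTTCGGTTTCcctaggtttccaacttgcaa
BST2 (chr19:17405731-17405780, minus strand): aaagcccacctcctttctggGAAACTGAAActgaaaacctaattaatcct
ISG20 (chr15:88638927-88638976, plus strand): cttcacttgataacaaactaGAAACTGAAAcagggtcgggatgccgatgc
IFI6 (chr1:27672319-27672368, minus strand): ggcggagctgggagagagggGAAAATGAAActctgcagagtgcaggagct
Of these 5 genes, IFI27 and IFI6 differed between lines only in the controls, the gap of IFIT1 narrowed under ESRRG OE, and the order of the lines turned in BST2 and ISG20.

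The ATF4 and amino acid response differed in the other way, under ESRRG OE. Of 30 tested genes 15 had a positive and 1 a negative called interaction (53.3%, beside 9.57% of all genes), with a median of 0.44. In AGS 29 passed the test (beside 46.2% of all genes) and all rose, with a median effect of 1.29. In MKN45 23 passed (beside 36.8%) and all rose, with a median of 0.72. The controls differed in 4 genes, 2 each way (beside 14.4% of all genes). Under ESRRG OE 21 were higher in AGS and 2 lower (beside 33.3%). With arrays scaled to one median the list had 5 positive calls and a median of 0.32, and with the own spread of each probe 7. ASNS and MARS1 were among the lost calls (adjusted p = 0.0521 and 0.117 with the one median).

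PCK2, the mitochondrial phosphoenolpyruvate carboxykinase and an ATF4 target, was at 11.79, 11.85 and 11.74 log2 units in the AGS ESRRG OE samples and 8.78, 8.77 and 8.76 in the AGS controls. It was at 10.30, 10.46 and 9.90 in the MKN45 ESRRG OE samples and 8.56, 8.45 and 8.48 in the MKN45 controls. Controls were close between lines, and both lines rose, AGS further (interaction 1.30, SE 0.15, adjusted p = 1.88e-05). ASNS, asparagine synthetase, was at 13.07, 12.93 and 12.86 log2 units in the AGS ESRRG OE samples and 9.60, 9.36 and 9.46 in the AGS controls. It was at 12.14, 12.19 and 11.41 in the MKN45 ESRRG OE samples and 9.58, 9.52 and 9.53 in the MKN45 controls. MKN45 ESRRG OE replicate 3 was the lowest of its group (interaction 1.11, SE 0.20, adjusted p = 0.00174). SLC7A11, the cystine transporter gene, averaged 9.26 ± 0.04 in AGS ESRRG OE and 6.96 ± 0.15 in AGS control samples, and was not detected on any MKN45 control array, so that its rise in MKN45 was at least 1.92-fold and its interaction has no measured size. DDIT3, which encodes the stress factor CHOP, was the exception, rising by 1.49 in AGS and 2.03 in MKN45 (interaction -0.54, SE 0.13, adjusted p = 0.0129), a call lost with background correction (adjusted p = 0.072).

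The C/EBP-ATF response element was searched as TGATGNAA on both strands, also after the values were seen. It stood in 7 of 25 listed promoters, in 3 of the 13 with a positive called interaction and in 1.8% of all. The ASNS and MARS1 matches are shown as members that carry it, MARS1 being a methionyl-tRNA synthetase gene with an interaction of 0.73 (SE 0.14, adjusted p = 0.00427).
ASNS (chr7:97872449-97872496, minus strand): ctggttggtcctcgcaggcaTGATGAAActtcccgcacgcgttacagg
MARS1 (chr12:57488044-57488091, plus strand, match on the other strand): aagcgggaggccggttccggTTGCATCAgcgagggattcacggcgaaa
The element of the estrogen-related receptors, TCAAGGTCA, stood in 18 of 9513 promoters (0.189%), in 1 of 473 with a positive and in 0 of 457 with a negative interaction. Its half-site AGGTCA stood in 10.1% of all, 9.09% with a positive and 10.1% with a negative interaction, 8.32% of the 637 genes with only an ESRRG OE difference and 9.49% of the 137 with only a control difference. No match says only that these letters are not in this window.

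Endoplasmic reticulum chaperones of the unfolded protein response had 5 called interactions of 15, each negative (33.3%, beside 4.54% of all genes), with a median of -0.15. In AGS 3 rose and 7 fell, and in MKN45 6 rose and 3 fell. MANF, a secreted stress-induced neurotrophic factor, was at 10.95, 10.997 and 11.12 log2 units in the AGS ESRRG OE samples and 11.79, 11.75 and 11.79 in the AGS controls. It was at 11.71, 11.66 and 11.68 in the MKN45 ESRRG OE samples and 11.65, 11.86 and 11.62 in the MKN45 controls. The AGS ESRRG OE samples were the low group (interaction -0.73, SE 0.11, adjusted p = 0.000537). PDIA4, a protein disulfide isomerase, fell by 0.30 in AGS and rose by 0.39 in MKN45 (interaction -0.69, SE 0.12, adjusted p = 0.00144).

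The list of cytosolic heat shock chaperones also holds the mitochondrial HSPE1. Of its 17 genes 5 had a negative and 1 a positive called interaction (35.3%, beside 9.57% of all genes), with a median of -0.28, and 10 fell in AGS and 10 in MKN45. HSPA8, the constitutive HSP70, was at 10.90, 10.96 and 10.80 log2 units in the AGS ESRRG OE samples and 13.03, 13.06 and 13.08 in the AGS controls. It was at 11.91, 11.74 and 12.14 in the MKN45 ESRRG OE samples and 13.25, 13.002 and 13.21 in the MKN45 controls. It fell in both lines and further in AGS (interaction -0.95, SE 0.14, adjusted p = 0.000272). HSPE1, the mitochondrial co-chaperonin, fell by 1.32 in AGS and 0.61 in MKN45 (interaction -0.71, SE 0.15, adjusted p = 0.00552). The positive one was DNAJB1, an HSP40, at 0.54 (SE 0.14, adjusted p = 0.0218), which did not pass without AGS ESRRG OE replicate 1 (adjusted p = 0.0581) or 2 (0.0564) or without MKN45 control replicate 1 (0.0565) or 3 (0.0646). With background correction or one median the list had 3 calls, all negative.

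Of 16 p53 targets 6 were called by their brightest probe, all negative (37.5%, beside 4.54% of all genes), with a median of -0.19. In AGS 5 rose and 7 fell, and in MKN45 6 rose and 3 fell. SESN1, a sestrin that restrains mTORC1, was at 9.07, 9.23 and 8.97 log2 units in the AGS ESRRG OE samples and 9.55, 9.44 and 9.54 in the AGS controls. It was at 10.04, 10.05 and 10.04 in the MKN45 ESRRG OE samples and 9.52, 9.40 and 9.54 in the MKN45 controls. The controls overlapped and the ESRRG OE samples moved apart (interaction -0.98, SE 0.11, adjusted p = 2.46e-05). TP53INP1, a p53-inducible nuclear protein gene, fell by 1.26 in AGS and 0.42 in MKN45 (interaction -0.84, SE 0.16, adjusted p = 0.00339). MDM2, the p53 ubiquitin ligase, averaged 7.43 ± 0.08 in AGS ESRRG OE and 7.75 ± 0.11 in AGS control samples, and 7.67 ± 0.05 in MKN45 ESRRG OE and 7.39 ± 0.06 in MKN45 control samples (interaction -0.60, SE 0.11, adjusted p = 0.00252). CDKN1A, the p21 gene, depended on the probe. Its brightest probe fell in both lines and had an interaction of 0.19 (SE 0.13, adjusted p = 0.397), while a second kept probe changed by 0.70 in AGS and -0.06 in MKN45 with an interaction of 0.76 (adjusted p = 0.000282), and the mean of the probes gave 0.48 (adjusted p = 0.00402). The list had 3 negative calls with the own spread of each probe.

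Of 21 cholesterol and fatty acid synthesis genes 4 were called, all negative (19%, beside 4.54% of all genes), with a median of -0.32. In AGS 13 fell and 2 rose, and in MKN45 9 fell and 5 rose. Besides FASN these included IDI1, the isopentenyl diphosphate isomerase gene, which averaged 8.12 ± 0.03 in AGS ESRRG OE and 8.91 ± 0.15 in AGS control samples, and 8.89 ± 0.13 in MKN45 ESRRG OE and 9.08 ± 0.14 in MKN45 control samples (interaction -0.60, SE 0.13, adjusted p = 0.0081). The list had 2 calls without MKN45 ESRRG OE replicate 1 and 1 with arrays scaled to one median, where IDI1 did not pass (adjusted p = 0.0693).

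**Figure D5:**
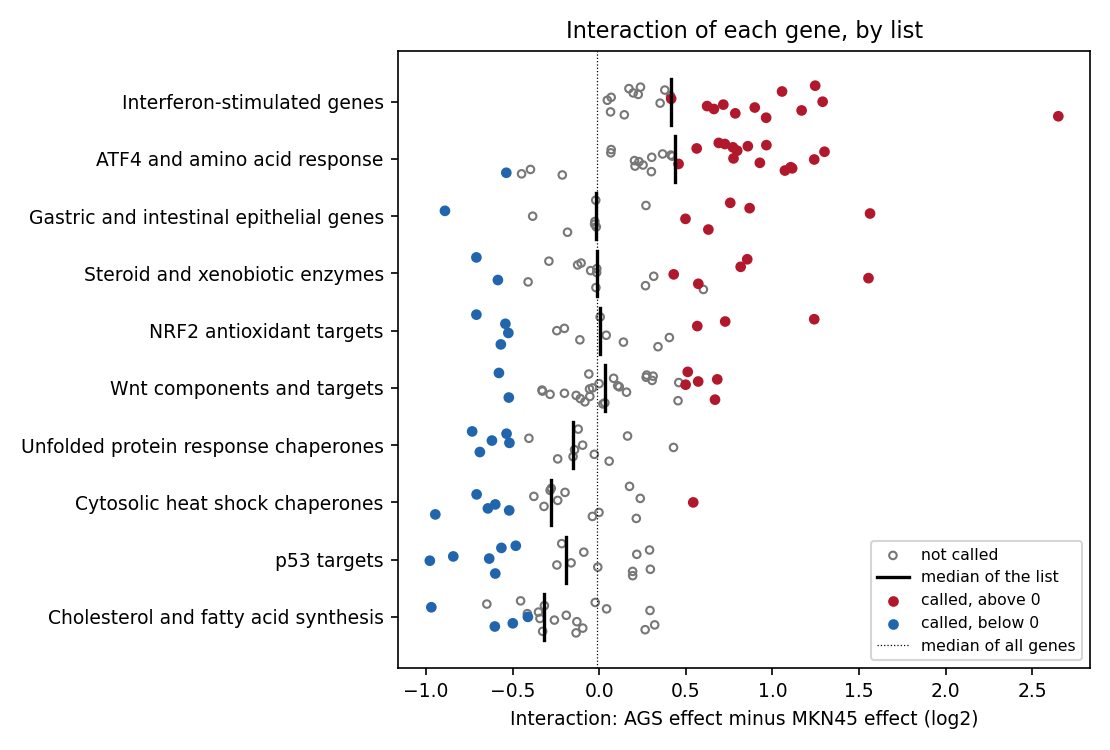
Interaction (AGS effect minus MKN45 effect, log2) of each tested gene in 10 gene lists, with called genes filled in red (above 0) or blue (below 0), the others open, the median of each list as a bar and the median of all 11970 genes as a dotted line. The interferon (0.42) and ATF4 (0.44) lists lie to the right of the dotted line, and the chaperone, p53 and cholesterol lists to its left.

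Of 15 NRF2 antioxidant targets 3 had a positive and 4 a negative called interaction (46.7%, beside 9.57% of all genes), with a median of 0.01. HMOX1, heme oxygenase 1, was among the largest control gaps. It was at 10.56, 10.63 and 10.31 log2 units in the AGS ESRRG OE samples and 11.73, 11.90 and 11.76 in the AGS controls. It was at 8.69, 8.48 and 8.68 in the MKN45 ESRRG OE samples and 9.32, 9.49 and 9.23 in the MKN45 controls. It fell in both lines, further in AGS, and AGS stayed higher (interaction -0.57, SE 0.14, adjusted p = 0.0146), a call lost with background correction (adjusted p = 0.185). ALDH3A1, an aldehyde dehydrogenase gene, fell by 1.92 in AGS and 1.21 in MKN45 (interaction -0.71, SE 0.12, adjusted p = 0.000909). UGT1A6, a glucuronosyltransferase gene that shares exons with its family, averaged 7.01 ± 0.05 in AGS ESRRG OE and 7.57 ± 0.02 in AGS control samples, and 10.14 ± 0.01 in MKN45 ESRRG OE and 10.11 ± 0.07 in MKN45 control samples. Its interaction was -0.58 (SE 0.10, adjusted p = 0.00151), while its other 2 kept probes gave -0.39 (adjusted p = 0.0545) and 0.04 (adjusted p = 0.896).

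Of the genes listed here from the study 11 were tested, chosen on these samples and so no independent evidence, and 4 had a called interaction (36.4%, beside 9.57% of all genes). DVL2 is among them, though the study's text does not name it. For DVL3, LGR5, TCF7L2, AXIN2 and CTNNB1 the study also reports lower levels by qRT-PCR in AGS and MKN28 cells with ESRRG. PCNA, the replication clamp, was at 10.86, 11.15 and 11.31 log2 units in the AGS ESRRG OE samples and 12.11, 11.997 and 11.997 in the AGS controls. It was at 11.51, 11.60 and 11.61 in the MKN45 ESRRG OE samples and 11.83, 11.99 and 12.03 in the MKN45 controls. By this probe PCNA fell in both lines, further in AGS (interaction -0.55, SE 0.14, adjusted p = 0.0187). The call was lost without AGS ESRRG OE replicate 1 (adjusted p = 0.055) and with the mean of its probes (-0.39, 0.0686). A second kept PCNA probe changed by -0.19 in AGS and 0.03 in MKN45, with an interaction of -0.22 (adjusted p = 0.432). SKP1, a core subunit of SCF ubiquitin ligases, fell by 0.97 in AGS and 0.33 in MKN45 (interaction -0.65, SE 0.12, adjusted p = 0.00228). DVL3, a dishevelled gene of Wnt signaling, fell by 0.85 and 0.32 (interaction -0.52, SE 0.14, adjusted p = 0.0306), a call lost without replicate 2 or 3 of AGS ESRRG OE, 1 or 3 of AGS control, 1 or 3 of MKN45 ESRRG OE, or 2 of MKN45 control (adjusted p 0.0514 to 0.0795). With arrays scaled to one median PCNA (-0.68, adjusted p = 0.108), SKP1 (-0.73, 0.0702) and DVL3 (-0.56, 0.0503) did not pass.

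TCF7L2, the Wnt transcription factor, was at 10.15, 10.12 and 9.80 log2 units in the AGS ESRRG OE samples and 9.11, 9.19 and 9.41 in the AGS controls. It was at 8.67, 9.06 and 9.09 in the MKN45 ESRRG OE samples and 8.82, 8.82 and 8.82 in the MKN45 controls. It rose in AGS, and the MKN45 effect of 0.12 did not pass the test (interaction 0.67, SE 0.16, adjusted p = 0.0137), a call lost with arrays scaled to one median (adjusted p = 0.12). CCND1, cyclin D1, fell by 0.70 in AGS and 1.16 in MKN45 with an interaction of 0.46 (SE 0.15, adjusted p = 0.074) that passed without AGS ESRRG OE replicate 3 (adjusted p = 0.0421), MKN45 ESRRG OE replicate 1 (0.0413) or MKN45 control replicate 2 (0.0216). AXIN2, a direct Wnt target, was higher in AGS with both vectors and fell by 0.68 and 0.71, with an interaction of 0.03 (SE 0.14, adjusted p = 0.924). The interactions of TOP2B (-0.45), JAG1 (0.31), DVL2 (-0.11), LGR5 (-0.33) and CTNNB1 (0.46) did not pass the test either with all arrays. CTNNB1 rose by 0.39 in AGS (adjusted p = 0.028), and its MKN45 effect of -0.06 did not pass the test. The rises of TCF7L2 and CTNNB1 on the AGS arrays are opposite to the lower levels that the study reports by qRT-PCR. The reason for this was not tested. TOP2B passed without MKN45 ESRRG OE replicate 2 (adjusted p = 0.0226) or MKN45 control replicate 3 (0.0319). It also passed in the fit of 1 value per gene (0.0433), where its 1 kept probe kept its estimate. A second kept CTNNB1 probe passed at 0.67 (adjusted p = 0.0446).

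Among growth regulators, CDKN2B, the p15 inhibitor of cyclin-dependent kinases, averaged 10.47 ± 0.03 in AGS ESRRG OE and 8.69 ± 0.11 in AGS control samples, and 9.87 ± 0.02 in MKN45 ESRRG OE and 8.78 ± 0.05 in MKN45 control samples (interaction 0.69, SE 0.11, adjusted p = 0.000528). EGFR, a receptor tyrosine kinase, rose by 1.73 in AGS and 1.06 in MKN45 (interaction 0.66, SE 0.16, adjusted p = 0.0129). MYC, a growth-promoting transcription factor gene, rose by 0.38 in AGS, and its MKN45 effect of -0.19 did not pass the test (interaction 0.57, SE 0.12, adjusted p = 0.00769). A second kept MYC probe had an interaction of 0.38 that did not pass (adjusted p = 0.131). SOX9, a transcription factor of epithelial progenitors and a Wnt target, rose by 1.03 and 0.35 (interaction 0.68, SE 0.16, adjusted p = 0.0115). None of these 4 genes passed with arrays scaled to one median (adjusted p 0.0867 to 0.196). With background correction EGFR (adjusted p = 0.0755), MYC (0.0584) and SOX9 (0.0819) did not pass either. In the whole Wnt list 5 interactions were positive and 2 negative of 31 (22.6%, beside 9.57% of all genes), and in the Notch list 4 of 16 were called, all positive (25%, beside 5.02%), with NRARP, a feedback inhibitor, at 0.76 (SE 0.16, adjusted p = 0.00576) and HES4, a repressor of the Hairy family, at 0.75 (SE 0.16, adjusted p = 0.00544). HES4 did not pass with the one median (adjusted p = 0.129), nor NRARP with background correction (adjusted p = 0.0607).

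Of 14 keratin and adhesion genes 3 were called, all positive (21.4%, beside 5.02% of all genes), and of 13 gastric and intestinal genes 5 were positive and 1 negative (46.2%, beside 9.57%), with a median interaction of -0.02. CLDN7, a tight junction claudin, averaged 12.81 ± 0.10 in AGS ESRRG OE and 11.54 ± 0.13 in AGS control samples, and 12.08 ± 0.19 in MKN45 ESRRG OE and 11.68 ± 0.14 in MKN45 control samples (interaction 0.87, SE 0.14, adjusted p = 0.000952). KRT20, the intestinal keratin, averaged 8.31 ± 0.14 in AGS ESRRG OE and 7.47 ± 0.12 in AGS control samples, and was detected on 1 of 3 MKN45 ESRRG OE arrays and on no MKN45 control array, so neither its MKN45 change nor its interaction has a measured size. Of 17 SRF and YAP targets 3 were called, all negative (17.6%, beside 4.54%), CCN2 and MYL9 (-0.62, SE 0.14, adjusted p = 0.0101), a myosin light chain gene whose call was lost with background correction (adjusted p = 0.0522), among them, while the median of the list was 0.05. One median left 1 negative call, and background correction gave 1 positive and 2 negative ones. MMP1, an interstitial collagenase with a control gap of 2.41, rose in both lines by 1.28 and 1.62, with an interaction of -0.34 (SE 0.13, adjusted p = 0.108) that passed with background correction (-0.83, adjusted p = 0.028).

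Of 9 liver plasma proteins 3 were called, all positive (33.3%, beside 5.02% of all genes). SERPINA3, a serine protease inhibitor gene, was detected on no control array of either line and on 1 of 3 MKN45 ESRRG OE arrays. It rose at least 1.43-fold in AGS, and its interaction has no measured size. Of 21 hypoxia and glycolysis genes 3 were positive and 1 negative (19%, beside 9.57%), among them the glucose transporter genes SLC2A1 (0.63) and SLC2A3 (0.61). In the gastric and intestinal list AGR2, a disulfide isomerase gene of secretory cells, had an interaction of 0.87 (SE 0.17, adjusted p = 0.00321), and the secreted lectin gene REG4 one of -0.89 (SE 0.14, adjusted p = 0.000453). AKR1C3, an aldo-keto reductase gene of the NRF2 list, rose in AGS, and its MKN45 effect of -0.04 did not pass the test (interaction 0.73, SE 0.13, adjusted p = 0.00167). Of 18 steroid and xenobiotic enzymes 5 were positive and 2 negative (38.9%), and ALDH1A1, a retinaldehyde dehydrogenase gene, rose by 0.99 in AGS (interaction 0.85, SE 0.14, adjusted p = 0.000752).

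Of 15 G1 regulators of the cell cycle 3 were positive and 1 negative (26.7%, beside 9.57% of all genes). The last was CDKN1C, the p57 inhibitor gene, which fell by 1.13 log2 units in AGS and in MKN45 by at least 1.4-fold to below detection on all 3 ESRRG OE arrays, so that its interaction has no exact size. Of 25 S phase genes 2 were negative (8.0%), with TYMS, thymidylate synthase, at -0.59. Of 26 mitotic genes 1 was positive and 3 negative (15.4%), with the phosphatase gene CDC25B at 0.82, the kinetochore protein gene CENPF at -0.49 and the kinesin gene KIF20A at -0.48. Of 11 genes of BMP signaling and its ID proteins, which block basic helix-loop-helix factors, 1 was positive and 2 were negative (27.3%). ID1 fell by 0.91 in AGS and 1.43 in MKN45 (interaction 0.52), ID2 by 0.93 and 0.35 (-0.58) and ID3 by 1.87 and 1.30 (-0.57). A second kept probe gave 0.18 for ID1 (adjusted p = 0.438) and -0.28 for ID2 (0.397).

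The oxidative genes that estrogen-related receptors are known to drive had 1 call in each list. Calls this few do not set the lists apart from all genes. An unadjusted p under 0.05 was found in 5 TCA cycle and fatty acid oxidation genes and 8 respiratory chain and ATP synthase genes, beside 3077 of all 11970. Of 20 genes of the TCA cycle and fatty acid oxidation 1 was called (5.0%, beside 9.57%), ETFB, an electron transfer flavoprotein subunit gene (0.44), and of 22 genes of the respiratory chain and ATP synthase 1 (4.5%), NDUFS3 of complex I (-0.50). Single calls came in 22 ribosome biogenesis genes, with the RNA helicase gene DDX21 at 0.43, in 9 small nucleolar RNA host genes, with ZFAS1 at 0.49, and in 13 receptor tyrosine kinases, with EGFR. Of 13 matrix protease genes 4 were positive (30.8%), with ADAM17, a sheddase gene, at 0.56 and its other kept probes at 0.18 (adjusted p = 0.39) and 0.43 (0.064). In the class I list HLA-F had an interaction of 0.52. By limma no interaction was called in 6 metallothioneins, 13 histone genes and 20 nuclear receptors and coregulators, of which 1, 2 and 2 had an unadjusted p under 0.05, although background correction gave 1 negative call in the last list. ESRRB and LEF1 had no kept probe.

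With arrays scaled to one median REG4, SERPINA3, AKR1C3, CDC25B, KIF20A and ALDH1A1 still passed. The interactions of ADAM17, AGR2, CDKN1C, CENPF, DDX21, ETFB, HLA-F, ID1, ID2, ID3, NDUFS3, SLC2A1, SLC2A3, TYMS and ZFAS1 did not (adjusted p 0.0671 to 0.403). Leaving out 1 array ended 8 calls. In the ESRRG OE groups these arrays were AGS replicate 1 for DDX21, ETFB, HLA-F, ID2, NDUFS3 and SLC2A3, AGS replicate 2 for CDKN1C, ETFB, HLA-F, ID2, KIF20A and SLC2A3, AGS replicate 3 for ETFB, ID2 and KIF20A, MKN45 replicate 1 for CDKN1C, ETFB, HLA-F and SLC2A3, MKN45 replicate 2 for CDKN1C and MKN45 replicate 3 for DDX21, ETFB, HLA-F, ID2 and KIF20A. In the controls they were AGS replicate 1 for CDKN1C, ETFB, HLA-F, ID2 and KIF20A, AGS replicate 2 for CDKN1C, ID2 and SLC2A3, AGS replicate 3 for ETFB, HLA-F and SLC2A3, MKN45 replicate 1 for CDKN1C, HLA-F, ID2 and SLC2A3, MKN45 replicate 2 for ETFB and KIF20A and MKN45 replicate 3 for ETFB, HLA-F, ID2 and SLC2A3. The adjusted p without 1 array was at most 0.0995 in these cases.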

How the data were processed

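RNA of 12 samples, 500 ng each, was hybridised to Illumina Human BeadChip V4 arrays read in GenomeStudio (no version given). The authors quantile normalized the intensity values, and the deposited series matrix holds them as log2 values (array median 6.889). The deposited intensity table, which is not quantile normalized, has a detection p-value per probe beside each intensity, and the deposited detection p-values were used for the filter. Of 47323 probes, 30113 had 1 gene symbol in the platform annotation, 8 several and 17202 none. A gene is given by its brightest kept probe, and 8691 of 11970 genes had 1 kept probe.

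Group means of the 4 groups were fitted together with limma 3.58.1 in R 4.3.3 (lmFit and eBayes, no covariate), with the Benjamini-Hochberg adjustment over 22241 kept probes for each contrast. The checking code was tested on simulated data. BRB-ArrayTools, named in the study, was not used here. Where all arrays of one group were below detection, a fold is given as a bound. For it, each array of the dim group counts with its lowest detected signal or the probe's own, whichever is higher, and their mean is set against that of the brighter group. The number of arrays limits the precision.

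The text names the 10 largest called interactions in each direction, for opposite directions the 8 genes of each orientation whose smaller absolute effect of the 2 lines was largest, the 5 largest of each gap class and direction, the 2 leading called genes of each direction in 34 lists, the receptor genes, markers and the genes listed above from the study. MET, MMP1, FGA, FGB, BST2, IFIT1, IFIT3, IFI44, ASNS, MARS1, MDM2 and CDKN1A fall outside the rule and were chosen after their values were seen. Members and lists were chosen with earlier results of these data known. Alternatives covered background correction (neqc with offset 16), scaling to one median, quantile normalization done again or within each line, the detection filter, the estimate of spread, the mean of the probes of a gene, the replicate number as a block and leaving out each array. Same-numbered arrays had correlated deviations of -0.093 to 0.224 over 12 pairs. Some lay above the highest other pairing, as for replicate 1 of the AGS and MKN45 controls (0.224 against -0.015). Others lay below it, as for replicate 3 of AGS ESRRG OE and AGS control (-0.042 against 0.211). With 3 arrays per group these values do not decide whether the numbers pair the samples.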

Additional observations from a re-analysis of the deposited data

Results flagged for a closer look

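The interaction tests directly whether the ESRRG OE effect differed between AGS and MKN45, and 1145 genes passed it. The values that follow are the interactions (AGS effect minus MKN45 effect, log2) of the named genes among them, by the gap between lines that goes with each. No explanation was tested.

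Where only the controls differed between the lines, the positive interactions were IFI27 2.65, PTGS2 1.46, LGALS7B 1.33, LGALS7 1.33, IFI6 0.96, HES4 0.75, SLC2A3 0.61 and DNAJB1 0.54. The negative ones were CST1 -1.14, DPYSL3 -1.11, UNC5CL -0.99, ZNF121 -0.94, S100A16 -0.86, SLC7A8 -0.82, PFKFB3 -0.69, ID3 -0.57 and CDKN1C -0.53.

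Where only the ESRRG OE samples differed between the lines, the positive interactions were PLAC8 1.44, RBCK1 1.40, APP 1.34, SPRR2D 1.34, PCK2 1.30, SLC7A11 1.24, TAF15 1.18, ASNS 1.11 and ANP32AP1 0.95. Further positive ones were SHROOM4 0.87, CLDN7 0.87, FMC1 0.87, CDC25B 0.82, NRARP 0.76, AKR1C3 0.73, MARS1 0.73, CDKN2B 0.69 and EGFR 0.66. Further positive ones were SLC2A1 0.63, SERPINA3 0.59, MYC 0.57, ADAM17 0.56, FGB 0.53, HLA-F 0.52, ZFAS1 0.49 and DDX21 0.43. The negative ones were HSD3B1 -1.62, FGD3 -1.17, SESN1 -0.98, ECM1 -0.97, FASN -0.97, HSPA8 -0.95, REG4 -0.89, TP53INP1 -0.84 and GPX3 -0.74. Further negative ones were MANF -0.73, HSPE1 -0.71, PDIA4 -0.69, SKP1 -0.65, IDI1 -0.60, TYMS -0.59, ID2 -0.58, PCNA -0.55 and DDIT3 -0.54. Further negative ones were DVL3 -0.52, NDUFS3 -0.50, CENPF -0.49 and KIF20A -0.48.

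Where the order of the lines turned between vectors, the positive interactions were MYH4 1.83, S100P 1.78, FILIP1L 1.69, MMP10 1.41, ISG20 1.29, BST2 1.25, HLA-B 0.98 and ALDH1A1 0.85. The negative ones were CST4 -1.36, SLC40A1 -1.12, ATF7IP2 -1.11, PSG4 -1.04, SLC29A3 -0.87 and MDM2 -0.60.

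Where both gaps passed and the one under ESRRG OE was narrower, the positive interactions were FGG 1.95, REG1A 1.48, IFIT1 1.17, IFIT3 0.90, AGR2 0.87 and IFI44 0.79. The negative ones were PAGE4 -1.32, CCN2 -1.04, SMIM24 -0.95, ALDH3A1 -0.71, MYL9 -0.62 and HMOX1 -0.57.

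Where both gaps passed and the one under ESRRG OE was wider, the positive interactions were LGALS4 1.56, CYP1A1 1.55, SAMD5 1.05, KRT20 0.78, SOX9 0.68, TCF7L2 0.67 and ID1 0.52. The negative ones were UGT1A6 -0.58.

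Where neither gap passed, the positive interactions were ETFB 0.44.

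FGG is listed by its brightest probe, and its second kept probe gave -0.72. Of the 100 named genes, 39 had another kept probe, and in 3 (FGG, FMC1 and UGT1A6) one of those had the opposite sign. The interactions of LGALS7 and LGALS7B may rest on the same transcripts. Those of KRT20, SLC7A11, MMP10, PAGE4, SERPINA3 and CDKN1C are fitted values that take in a group below detection on all its arrays, and so are no measured sizes.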

How the results depend on the processing

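On the main setting 1145 interactions, 56 opposite-direction genes, 170 genes with only a control difference and 777 with only an ESRRG OE difference were called. Background correction (neqc) gave 555 interactions, 105 control differences and 342 ESRRG OE differences. Arrays scaled to one median gave 340, 42 and 248, with 21 opposite-direction genes. Positive interactions were then 36.8% of calls, against 52.5%, and the medians over all genes moved to 0.08 in AGS, 0.14 in MKN45, -0.10 between controls, -0.15 between ESRRG OE groups and -0.07 for the interaction. Quantile normalization within each line gave 479 ESRRG OE differences and 4024 calls between controls. It sets each line to its own distribution, so levels of the lines are not on one scale there. The median gap over all genes was then -0.13 between controls and -0.11 between ESRRG OE groups. These 2 counts therefore do not check the gaps between lines. The own spread of each probe gave 543, 83 and 362. The cause was not tested. Leaving out single arrays gave 712 to 1203 interactions, 35 to 85 opposite-direction genes, 112 to 161 control differences, 454 to 832 ESRRG OE differences, 4839 to 5674 effects in AGS, 3469 to 4506 in MKN45, 1314 to 1788 calls between controls and 3026 to 4137 between ESRRG OE groups. The lowest counts of interactions were 722 and 712 without AGS ESRRG OE replicate 1 or 2, and those of ESRRG OE differences 457 and 454 without the same arrays and 504 without MKN45 ESRRG OE replicate 1. Control differences were 112 without MKN45 control replicate 3. Opposite-direction genes were 35 without MKN45 ESRRG OE replicate 1, 36 without AGS control replicate 1 and 85 without AGS control replicate 3.

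With the replicate number as a block, as 3 numbers over all groups, 1283 interactions and 83 opposite-direction genes were called. With a block within each line the counts were 1195 and 71, and levels between lines were not fitted there. Both blocks also called CCND1 (adjusted p = 0.0465 and 0.0413) and TOP2B (0.0359 and 0.0282). The 100 named genes past the test gave 2398 values under the alternatives, of which 2222 stayed past the test, 176 did not and 0 changed sign, and 55 genes passed in every setting. The most losses came with one median (35 genes), the own spread of each probe (33) and background correction (29). No depth is known for arrays, and 81 called genes had a group below detection on all its arrays, 17 of them a whole line.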
